A study of Anas platyrhynchos with 8 samples.

Results

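The genes described here were grouped under catecholamine signalling, and whether they carry a noradrenaline signal in this fat was not tested. They are the transporter SLC6A2, the oxidase MAOA, the adrenoceptor ADRB1, the G protein subunit GNAS and the adenylyl cyclase ADCY5. The protein kinase A (PKA) subunits PRKACA, PRKACB and PRKAR2B complete the set. The 8 genes were taken from the mRNA table by symbol, ignoring case. Of them 7 had rows there, 18 of 48592 rows and 7 of 13213 symbols. No row analysed here carried the symbol PRKACA. The RNA was abdominal fat RNA of F2 ducks (Anas platyrhynchos) at day 42. There were 4 libraries of birds with a high abdominal fat ratio (HF-1 to HF-4) and 4 of birds with a low one (LF-1 to LF-4). All birds were kept alike with free access to food and water. The labels give no strain, treatment or sex, and leave it unsaid whether each library is from a single bird or from several. P-values then cover the spread between these libraries only, which may in part be technical. The set was chosen by symbol with the log2 fold changes of HF over LF in these same libraries already known, so the differences given for the 7 genes are a description and not a test.

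Sympathetic nerve endings in fat release noradrenaline. Beta-adrenoceptors on fat cells pass the signal through the stimulatory G protein to adenylyl cyclase, cyclic AMP (cAMP) rises, and cAMP frees the catalytic subunits of PKA from the regulatory ones, which in mammals drives the breakdown of stored triglyceride. The noradrenaline transporter takes the amine back up and monoamine oxidase breaks it down inside cells. In birds glucagon, whose receptor also raises cAMP, is a main lipolytic hormone.

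Total estimated counts in the mRNA table ran from 12696240 to 30836178 per library. The rows whose descriptions name the W chromosome or Wpkci summed to 1818 to 4226 counts in the HF libraries, against 3 to 8 in LF-1 to LF-3 and 2861 in LF-4, so W content and fat group coincide in all libraries but LF-4. Levels of the fat cell markers FABP4, PLIN1 and LPL averaged 15729, 1483 and 1428 FPKM over the 8 libraries. Levels within a gene are given below as CPM, counts scaled to the TMM-adjusted library size. Levels between genes are given as FPKM, the authors' read density per transcript length and library size, summed per gene. Log2 fold changes are HF over LF.

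SLC6A2, which clears noradrenaline from around nerve endings, was lower in every HF library than in any LF library. It stood at 10.4, 7.52, 4.90 and 8.97 CPM in HF-1 to HF-4, against 38.8, 19.1, 51.1 and 39.5 CPM in LF-1 to LF-4. The highest HF library lay below the lowest LF library, LF-2, and LF-3 was the highest. The mean was 7.96 ± 2.37 CPM in HF and 37.1 ± 13.3 CPM in LF (SD, n = 4 each), 4.65-fold lower in HF, with a log2 fold change of -2.22 ± 0.32 (SE). It rested on 659 estimated counts in HF and 3127 in LF. As a description, SLC6A2 was the 1 gene of the 7 past an edgeR adjusted p of 0.05, where 0.647% of 10511 genes passed, 0.352% as lower and 0.295% as higher in HF. The log2 fold change lay between -2.44 and -2.02 when each library was left out in turn, and it was past 0.05 in 3 of those 8 fits, not without HF-1, HF-3, HF-4, LF-1 or LF-3.

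The difference in SLC6A2 was as large against LF-4 as against the other LF libraries. LF-4, which held W-described transcripts as the HF libraries did, had 39.5 CPM of SLC6A2, the other LF libraries averaged 36.4 CPM, and the HF libraries 7.96 CPM. Set against LF-4 alone through a covariate for those transcripts, the log2 fold change was -2.31 ± 0.45 (SE), with LF-4 assumed to vary like the others, and it was not past 0.05. The summed level of 11 sympathetic neuron markers with rows, 14.8 to 17.5 CPM in HF and 13.2 to 21.2 CPM in LF, overlapped between the groups. Most of that sum was TUBB3, at 11.3 ± 1.19 CPM in HF and 11.1 ± 4.90 CPM in LF, and UCHL1, at 3.76 ± 0.650 CPM in HF and 3.16 ± 1.51 CPM in LF. The vesicular carrier SLC18A2 of the same list was lower in every HF library, at 0.759 ± 0.416 CPM in HF and 1.55 ± 0.142 CPM in LF (SD, n = 4 each). So were 4.64% of all genes tested. SLC18A2 rested on 66 estimated counts in HF and 139 in LF, and its nearest libraries were HF-1 at 1.29 CPM and LF-3 at 1.44 CPM. Its part in the SLC6A2 difference was not tested. Tyrosine hydroxylase TH, which makes the precursor of noradrenaline, held 6 counts summed over the HF libraries and 4 over the LF libraries. DBH, which makes noradrenaline itself, held 0 in HF and 1 in LF. The neuron-specifying factor PHOX2A was at 0 in all 8 libraries, where 3 counts, the limit that a count of 0 allows, are 0.0973 to 0.236 CPM of the unscaled totals, for counting error only. Counts this low, and a sum made mostly of TUBB3 and UCHL1, give no measure of nerve content, which was not tested. In whole tissue, fewer cells that carry SLC6A2 and less SLC6A2 RNA per cell cannot be told apart.

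Most of the SLC6A2 counts came from a single RefSeq model. Of 4 rows with that symbol, XM_027467061.1 held 379 counts in HF and 2206 in LF, the assembled model TCONS_00048119 187 and 765, TCONS_00048117 92.9 and 155, and XM_027467060.1 was at 0. The RefSeq model XM_027467061.1 took 57.9%, 55.2%, 58.8% and 57.6% of the gene's counts in HF-1 to HF-4, against 79.1%, 66.5%, 73.4% and 65.5% in LF-1 to LF-4. Its share was lower in every HF library than in any LF library. The assembled models varied between libraries of a group. TCONS_00048119 was at 0 in HF-4, where TCONS_00048117 took 42.4%, and TCONS_00048117 was at 0 in HF-1, HF-2 and LF-1. On its own XM_027467061.1 had a log2 fold change of -2.53 ± 0.39 (SE), and sums over RefSeq rows alone gave -2.55 for the gene. XM_027467061.1 was not among the 4 of 23879 transcripts (0.0168%) past an edgeR adjusted p of 0.05. DESeq2 passed 624 transcripts in all (2.27%), and whether XM_027467061.1 was among them is not given here.

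**Figure D1:**
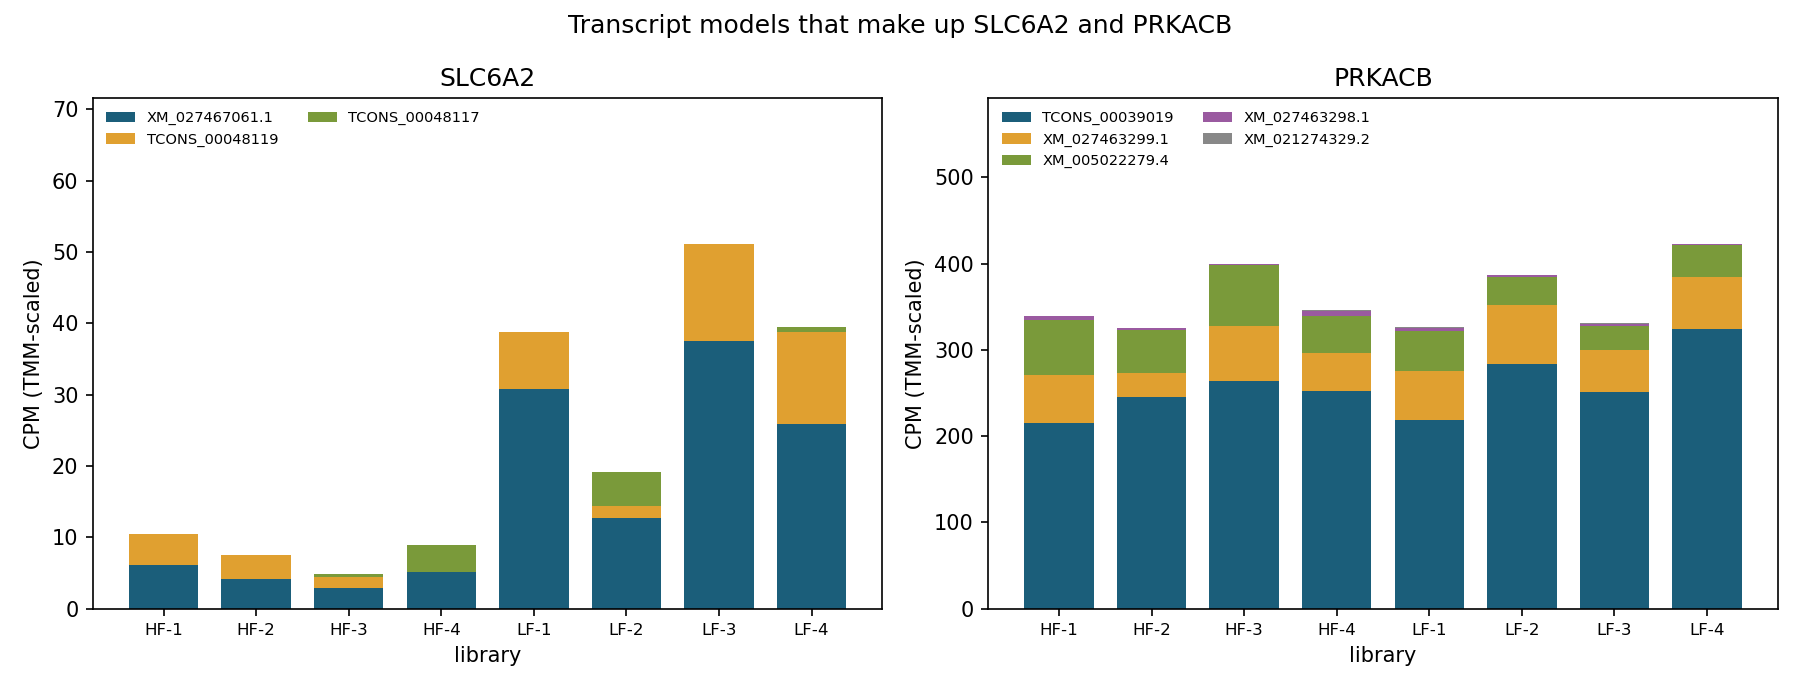
Stacked CPM (TMM-scaled) of the transcript models of SLC6A2 (left) and PRKACB (right) in each library, HF libraries left of LF. XM_027467061.1 is the main part of SLC6A2 in all 8 libraries, while TCONS_00039019 is the main part of PRKACB.

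The genes whose pattern was most like that of SLC6A2 were looked for in the whole table. Likeness was Pearson's r of log2 CPM over the 8 libraries among 10037 genes with a mean of at least 1 CPM, given as a description, since the groups stand apart and all genes share the same libraries. The highest were HNRNPU (0.98), an RNA-binding nuclear protein, LRRC57 (0.98), KNDC1 (0.97), RUNX2 (0.97), a transcription factor of bone formation, and KALRN (0.96). With group means taken out, r was 0.96 for KNDC1, 0.89 for HNRNPU, 0.87 for LRRC57, 0.79 for RUNX2 and 0.76 for KALRN. A high r does not mean a difference of the same size. The log2 fold change was -0.25 ± 0.10 (SE) for HNRNPU, -0.35 ± 0.12 for LRRC57 and -0.79 ± 0.15 for KALRN. It was -1.56 ± 0.22 for RUNX2 and -1.67 ± 0.36 for KNDC1, against -2.22 for SLC6A2. KNDC1 stood at 97.1, 81.2, 38.5 and 89.1 CPM in HF-1 to HF-4, against 292, 106, 292 and 283 CPM in LF-1 to LF-4. Like SLC6A2 it was lowest in HF-3 among the HF libraries and in LF-2 among the LF libraries. Such likeness within groups follows in part from choosing the genes by r over these same libraries. By the same measure the other 6 genes of the pathway set had r to SLC6A2 from -0.50 for ADCY5 to 0.77 for GNAS, and -0.11 for GNAS with group means taken out.

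MAOA, which oxidises noradrenaline and serotonin, did not separate the groups. It was at 52.1, 61.2, 43.3 and 58.9 CPM in HF-1 to HF-4, against 67.8, 43.5, 57.3 and 47.4 CPM in LF-1 to LF-4, with full overlap. The log2 fold change was -0.0014 ± 0.17 (SE), and its sign turned under 12 of 17 alternatives, other scalings among them. The single MAOA row was described as an A-like, partial amine oxidase. MAOA and MAOB are close relatives, so the authors' counting may have split reads between them. MAOB ranged more widely, 19.0 to 78.6 CPM in HF and 3.33 to 56.4 CPM in LF, and per length MAOA exceeded it in all libraries except HF-4, with an FPKM ratio of 0.814 to 2.48 in HF and 1.31 to 14.2 in LF. MAOB had a log2 fold change of 0.86 ± 0.70 (SE) and did not pass edgeR's test. It was among 4 tested genes of uptake and breakdown beside SLC6A2 and MAOA, all 4 of them positive with a median of 0.49. Of these 0 passed and 0 had an unadjusted p under 0.05, against 15.0% of all genes. Of the enzymes and vesicle carriers that make and store catecholamines, 2 of 7 were abundant enough to test. The vesicular carrier SLC18A2, also a neuron marker, had a log2 fold change of -1.01 ± 0.42 (SE) without overlap of the groups, on 66 counts in HF and 139 in LF. GCH1, which supplies the cofactor of tyrosine hydroxylase, had a log2 fold change of 0.24 ± 0.43 (SE), and neither passed. DDC, the decarboxylase between TH and DBH, held 29 counts in each group.

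ADRB1, a receptor that couples noradrenaline to cAMP, was low, with a single row and 512 counts in HF against 515 in LF. It stood at 9.04, 11.2, 2.87 and 3.54 CPM in HF-1 to HF-4, against 6.11, 4.51, 7.33 and 5.96 CPM in LF-1 to LF-4. HF-1 and HF-2 lay above all LF libraries, and HF-3 and HF-4 below all of them. The log2 fold change was 0.15 ± 0.42 (SE), or -0.21 without HF-2 and 0.40 without HF-3. Per length, ADRB1 at 2.45 ± 1.53 FPKM in HF and 2.14 ± 0.464 FPKM in LF lay near another beta receptor (SD, n = 4 each). That receptor, with the symbol ADRB4C and described in the table as a beta-3 adrenergic receptor, was at 1.89 ± 0.278 FPKM in HF and 3.97 ± 2.79 FPKM in LF. ADRB4C was named after its values were seen. It stood at 3.6, 4.7, 4.5 and 3.8 CPM in HF-1 to HF-4, against 17.8, 4.8, 4.1 and 9.1 CPM in LF-1 to LF-4. The groups overlapped, and LF-1 and LF-4 stood apart from the other libraries. ADRB4C had a log2 fold change of -1.11 ± 0.44 (SE) and did not pass edgeR's test.

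The most abundant adrenoceptor was not a beta receptor. ADRA1B, an alpha-1 receptor that signals through calcium, was at 25.6 ± 7.09 FPKM in HF and 55.5 ± 8.30 FPKM in LF, 6.61 to 24.1 times the FPKM of ADRB1 in HF libraries and 19.1 to 37.1 times in LF libraries. It stood at 77.7, 73.3, 41.5 and 84.8 CPM in HF-1 to HF-4, against 128, 166, 139 and 186 CPM in LF-1 to LF-4, with no overlap. Its log2 fold change of -1.16 ± 0.22 (SE) was just short of the threshold (edgeR adjusted p = 0.0553), and DESeq2 and limma on log2 FPKM passed it. ADRA1D had a log2 fold change of -0.85 ± 0.39 (SE) and did not pass. ADRA2A, an alpha-2 receptor that lowers cAMP in mammals, was low at 1.45 ± 0.908 CPM in HF and 1.03 ± 0.668 CPM in LF (log2 fold change 0.45 ± 0.59, SE). Of 10 listed catecholamine receptors with rows, ADRB1 and ADRB4C left out, 7 were tested and 5 were positive. The median log2 fold change of the 7 was 0.36, and 0 passed. At an unadjusted p under 0.05 there was 1 (14.3%, against 15.0% of all genes).

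The glucagon receptor GCGR lay above ADRB1 and ADRB4C in all 8 libraries, at 61.0 ± 12.3 FPKM in HF and 57.1 ± 2.87 FPKM in LF. Its FPKM was 12.2 to 57.0 times that of ADRB1 in HF libraries and 20.4 to 35.4 times in LF libraries. GCGR had a log2 fold change of 0.059 ± 0.16 (SE). Over 13 tested receptors coupled to cAMP other than adrenoceptors, 8 were positive with a median of 0.059, and 0 passed edgeR's test. The list mixes receptors that raise cAMP with others that lower it, such as ADORA1 and PTGER3, so its signs have no single meaning for cAMP. At an unadjusted p under 0.05 there were 4 (30.8%, against 15.0% of all genes). ADCYAP1R1, the receptor of the peptide PACAP, was at 14.5 ± 7.53 CPM in HF and 4.95 ± 1.68 CPM in LF (1.54 ± 0.40, SE). PTH1R, the parathyroid hormone receptor, was at 17.2 ± 4.01 CPM in HF and 32.5 ± 8.46 CPM in LF (-0.91 ± 0.22, SE).

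**Figure D2:**
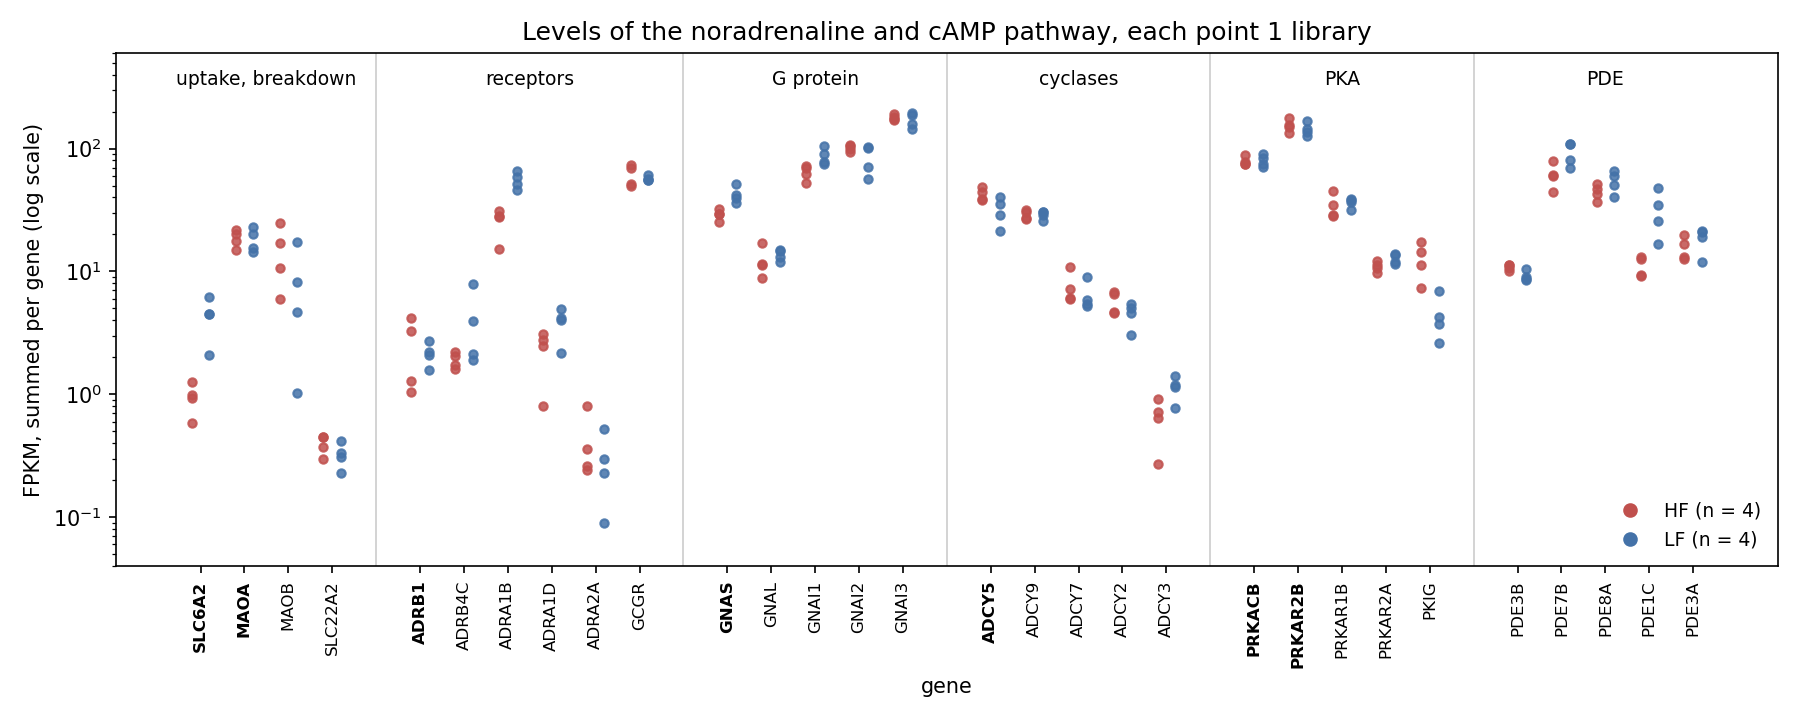
FPKM summed per gene on a log axis, each point 1 library, HF (left of each pair) and LF (right); bold names are the genes this account is about. Within the receptors ADRB1 lies far below ADRA1B and GCGR, and SLC6A2 is the lowest of the bold genes together with ADRB1.

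GNAS, the stimulatory subunit that links receptors which raise cAMP to adenylyl cyclase, was lower in every HF library than in any LF library. It stood at 151, 146, 165 and 129 CPM in HF-1 to HF-4, against 190, 209, 213 and 277 CPM in LF-1 to LF-4. LF-4 was the highest and HF-4 the lowest. The mean was 148 ± 14.8 CPM in HF and 222 ± 38.0 CPM in LF (SD, n = 4 each), with a log2 fold change of -0.59 ± 0.14 (SE), 1.51-fold lower in HF. The RefSeq model XM_027442827.1 carried 92.8% to 96.5% of its counts in HF and 93.2% to 95.8% in LF. As a description, GNAS was not past an edgeR adjusted p of 0.05. It was past it by DESeq2 and with the W covariate, where the log2 fold change was -0.91, and it was at -0.47 without LF-4. SLC6A2 and GNAS were the 2 of the 7 genes whose groups did not overlap, both lower in HF, as were 4.64% of all genes tested. Of 12 other G protein subunits tested, 5 were positive, the median was -0.033 and 0 passed edgeR's test. At an unadjusted p under 0.05 there were 2 (16.7%, against 15.0% of all genes). GNAI1, an inhibitory subunit, was at 183 ± 23.4 CPM in HF and 255 ± 46.8 CPM in LF without overlap (-0.48 ± 0.16, SE), and the log2 fold change of GNG12 was -0.55 ± 0.20.

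ADCY5, a cyclase that the stimulatory subunit activates, averaged higher in HF with overlapping groups. It was at 230, 196, 199 and 252 CPM in HF-1 to HF-4, against 214, 154, 180 and 116 CPM in LF-1 to LF-4. LF-1 lay inside the HF range and LF-4 was the lowest of all. The log2 fold change was 0.40 ± 0.18 (SE), 0.27 without LF-4 and 0.91 with the W covariate, and was not past the threshold. ADCY5 was the most abundant cyclase, at 42.6 ± 4.76 FPKM in HF and 31.5 ± 8.24 FPKM in LF. It made up 42.4% to 54.6% of the summed FPKM of the 8 cyclases with rows in HF and 36.8% to 47.6% in LF. ADCY9 followed, at 29.0 ± 2.37 FPKM in HF and 29.0 ± 2.34 FPKM in LF, so that ADCY5 exceeded ADCY9 in all HF libraries but in LF-1 and LF-3 only among the LF libraries. Of the 5 cyclases tested beside ADCY5, 3 were positive and 0 passed edgeR's test, with ADCY3 at -0.85 ± 0.37 and ADCY2 at 0.26 ± 0.21 (log2 fold change, SE). At an unadjusted p under 0.05 there was 1 (20.0%, against 15.0% of all genes).

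The PKA subunits were the most abundant of the 7 genes and their groups overlapped. PRKACB, a catalytic subunit, was at 339, 325, 400 and 346 CPM in HF-1 to HF-4, against 326, 387, 331 and 423 CPM in LF-1 to LF-4. The log2 fold change was -0.056 ± 0.13 (SE), and its sign turned without LF-4 (0.019) and over RefSeq rows alone (0.15). The assembled model TCONS_00039019 held 63.5% to 75.4% of PRKACB counts in HF and 67.0% to 76.7% in LF. The RefSeq model XM_005022279.4 held 12.4% to 18.9% in HF and 8.33% to 14.2% in LF, where LF-1 and HF-4 overlapped, with a log2 fold change of 0.68 ± 0.22 (SE) that was not past the threshold.

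PRKAR2B, the type II-beta regulatory subunit and the main one of mouse fat, had the highest level of the set, at 154 ± 18.2 FPKM in HF and 143 ± 17.6 FPKM in LF. It was at 624, 515, 597 and 707 CPM in HF-1 to HF-4, against 509, 590, 529 and 695 CPM in LF-1 to LF-4, with overlap and a log2 fold change of 0.073 ± 0.15 (SE), whose sign turned without HF-4 and with the W covariate. Of its 3 rows, XM_005010251.3 and XM_027459151.1 had identical counts in all 8 libraries, so their counts cannot be told apart. Per length PRKAR2B was 1.69 to 2.31 times PRKACB in HF and 1.72 to 1.85 times in LF. PRKAR1A was not analysed here. PRKAR1B, at 34.1 ± 7.73 FPKM in HF and 36.5 ± 3.25 FPKM in LF, and PRKAR2A, at 9.65 to 12.2 FPKM in HF and 11.6 to 13.9 FPKM in LF, were lower than PRKAR2B. Of 14 tested subunits, inhibitors and anchors other than PRKACB and PRKAR2B, 4 were positive, the median was -0.17 and 0 passed edgeR's test. At an unadjusted p under 0.05 there were 2 (14.3%, against 15.0% of all genes). PKIG, an inhibitor of the catalytic subunit, was at 17.2 ± 5.79 CPM in HF and 6.12 ± 2.33 CPM in LF without overlap (1.49 ± 0.33, SE; edgeR adjusted p = 0.0804). The anchor AKAP6 had a log2 fold change of 1.49 ± 0.61 (SE), with HF-3 at 67.1 CPM and the other HF libraries at 10.6 to 15.3 CPM.

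**Figure D3:**
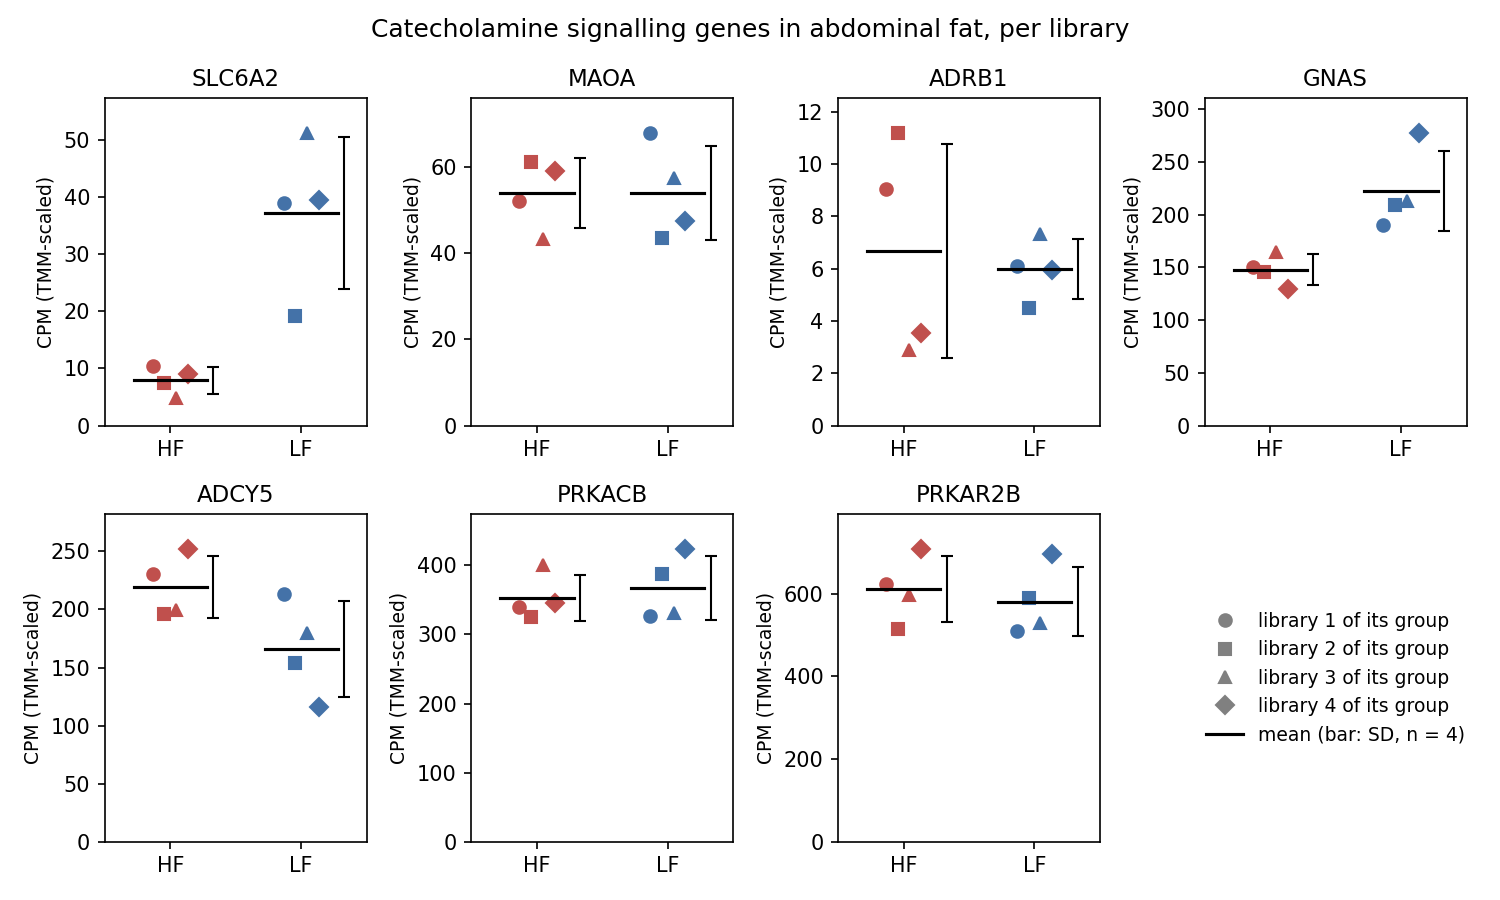
CPM (TMM-scaled) of the 7 genes with rows in each library, HF left and LF right in each panel, with the mean as a line and the SD as a bar (n = 4 each). SLC6A2 and GNAS show no overlap between groups, and ADRB1 shows HF libraries on either side of the LF libraries.

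Ordered by FPKM, the 7 genes ran from PRKAR2B (149 over all libraries) through PRKACB (79.5), ADCY5 (37.1), GNAS (35.7) and MAOA (18.4) to SLC6A2 (2.63) and ADRB1 (2.30). ADCY5 and GNAS exchanged places between groups, since ADCY5 was the higher in all HF libraries (38.5 to 48.7 against 25.3 to 32.2 FPKM), while GNAS was the higher in LF-2, LF-3 and LF-4. SLC6A2 and ADRB1 exchanged places too, with ADRB1 above SLC6A2 in all HF libraries and below it in all LF libraries.

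Over the whole pathway, 0 of 97 tested genes in the 11 lists of the pathway, the 7 genes left out, passed edgeR's test, where 0.647% of all genes did. At an unadjusted p under 0.05 there were 20 (20.6%, against 15.0% of all genes), and 13 had groups without overlap, 10 lower and 3 higher in HF (13.4%, against 9.19% of all genes, 4.64% lower and 4.55% higher). Their median log2 fold change was -0.070, against 0.0012 over all genes, and 43.3% were positive, against 50.2% of all genes. DESeq2 gave an adjusted p to 104 and passed 10 (9.62%), 3 higher and 7 lower in HF, where it passed 5.51% of all genes, 2.82% higher and 2.69% lower. These were ADCYAP1R1, PKIG and ADRBK1 among the higher, and ADRA1B, MC5R, PTH1R, PDE1C, RGS2, SIK2 and NR4A2 among the lower. Limma on FPKM passed ADRA1B. Leaving out a library passed DUSP1 without HF-2 and PDE1C without LF-1, and the W covariate passed PDE1C.

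The phosphodiesterases, which break down cAMP, were at -0.26 in the median, with 9 of 11 negative and 0 past edgeR's threshold. At an unadjusted p under 0.05 there were 2 (18.2%, against 15.0% of all genes). PDE1C was at 83.6, 83.2, 54.8 and 52.2 CPM in HF-1 to HF-4, against 102, 164, 209 and 328 CPM in LF-1 to LF-4, without overlap (log2 fold change -1.55 ± 0.33, SE; edgeR adjusted p = 0.0741). PDE7B, the phosphodiesterase with the highest FPKM, was at 61.3 ± 14.6 FPKM in HF and 92.2 ± 20.5 FPKM in LF (-0.63 ± 0.22, SE). PDE3B, through which insulin lowers cAMP in mammalian fat cells, was at 10.9 ± 0.591 FPKM in HF and 9.13 ± 0.864 FPKM in LF (0.20 ± 0.13, SE). Summed over the 13 phosphodiesterases with rows, FPKM was 141 to 199 in HF and 197 to 274 in LF, where HF-1 and LF-2 overlapped.

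Of 9 tested genes that shut down the receptors or the G proteins, 6 were positive, the median was 0.082, and 0 passed edgeR's test. At an unadjusted p under 0.05 there were 3 (33.3%, against 15.0% of all genes). The largest difference of the list, and of the tested pathway genes, was that of RGS16, a relative of RGS2 named after its values were seen. Its estimated counts were 30, 47, 21 and 36 in HF-1 to HF-4, against 10, 0, 0 and 0 in LF-1 to LF-4, without overlap in CPM (log2 fold change 3.58 ± 1.22, SE; edgeR adjusted p = 0.210). RGS2, which speeds the switch-off of G proteins, was at 56.6 ± 20.0 CPM in HF and 139 ± 66.9 CPM in LF (-1.30 ± 0.36, SE). ADRBK1, an older symbol of the receptor kinase GRK2 and here a single assembled model, had a log2 fold change of 1.60 ± 0.50 (SE), against 0.082 ± 0.17 for the rows under GRK2, and reads may have been split between them. SIK2, a kinase that PKA inhibits, was at 524, 556, 499 and 455 CPM in HF-1 to HF-4, against 1136, 763, 761 and 980 CPM in LF-1 to LF-4, without overlap (-0.84 ± 0.16, SE; edgeR adjusted p = 0.0581). Among its list of effectors and transcription factors 8 of 10 were negative with a median of -0.11 and 0 passed edgeR's test. With an unadjusted p under 0.05 there was 1 of the 10, against 15.0% of all genes. CREBBP had a log2 fold change of -0.19 ± 0.15 (SE). Of 10 tested genes known to respond to cAMP, 8 were negative with a median of -0.66 and 0 passed edgeR's test (3 at an unadjusted p under 0.05). NR4A2 was at 1.55 ± 0.428 CPM in HF and 3.70 ± 1.34 CPM in LF (-1.26 ± 0.36, SE), and NR4A3 was at 15.8 to 58.1 CPM in HF and 47.9 to 105 CPM in LF (-1.19 ± 0.41, SE).

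**Figure D4:**
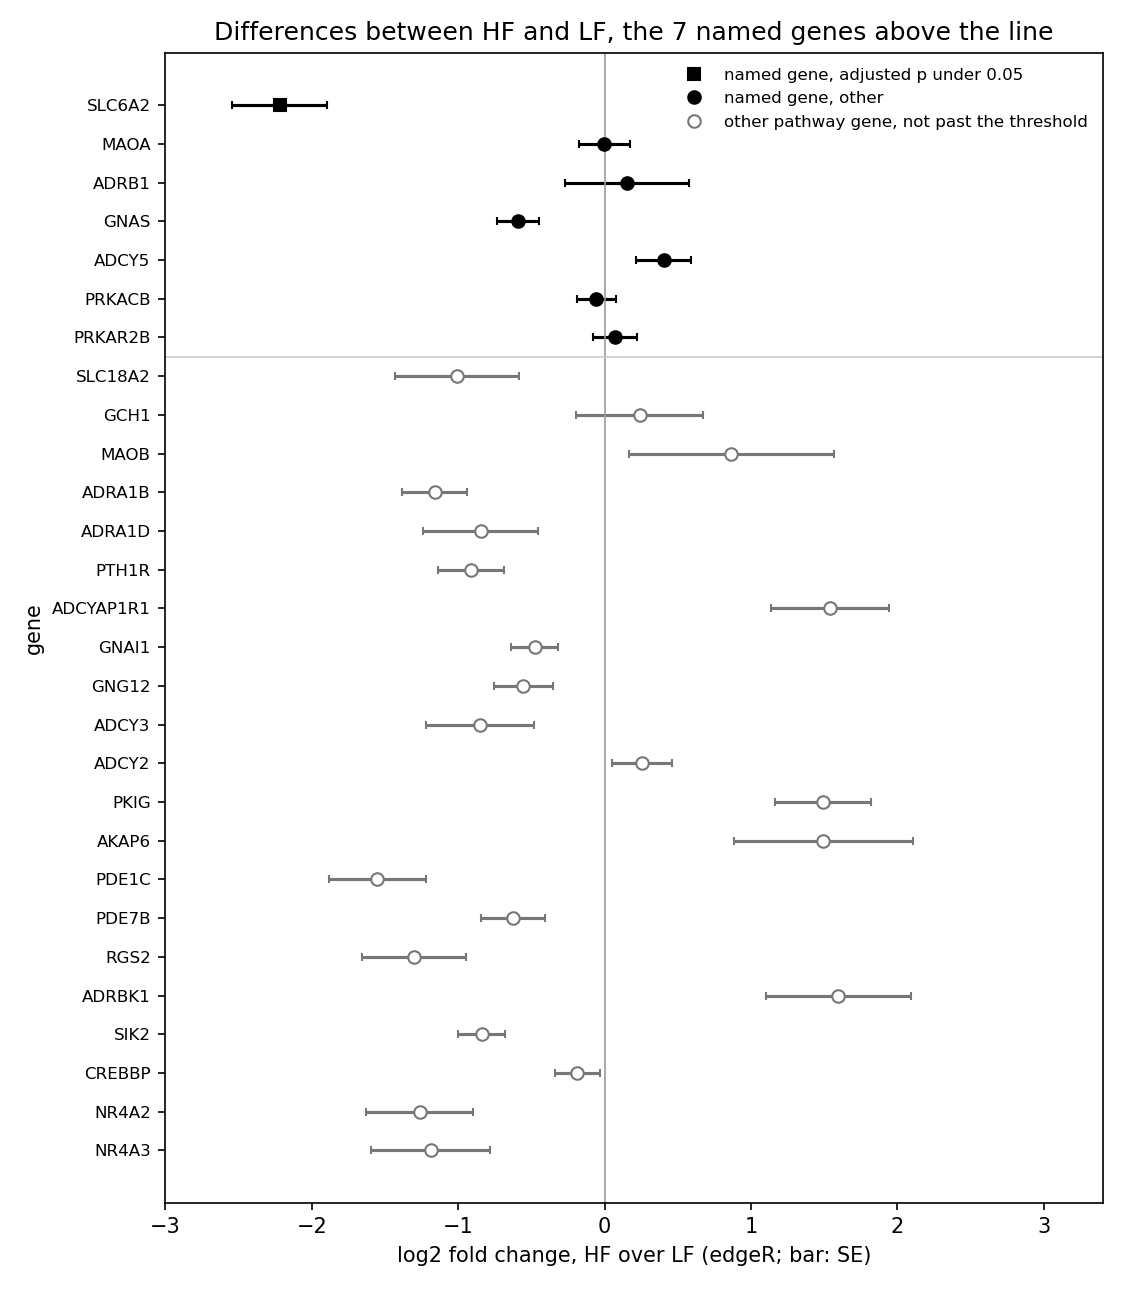
Log2 fold change of HF over LF with its SE from edgeR for the 7 genes (above the line) and other pathway genes named by rule (below). SLC6A2 lies at -2.22, farther from 0 than the other genes drawn, which lie between -1.55 and 1.60. RGS16, at 3.58 with few counts, was not named by the rule and is not drawn.

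Markers of other cells were read beside these values, and their part in them was not tested. EdgeR passed 0 genes of the 8 marker lists. At an unadjusted p under 0.05 there were 16 of 51 markers (31.4%, against 15.0% of all genes): 5 of 12 adipocyte, 4 of 8 macrophage, 3 of 6 smooth muscle, 2 of 10 endothelial, 1 of 3 neuron and 1 of 5 mesothelial markers, 0 of 4 of Schwann cells and 0 of 3 of skeletal muscle. DESeq2 passed 7 of 50 with an adjusted p (14.0%, against 5.51% of all genes): CD36 and DGAT2 of the adipocyte list, PECAM1, ACTA2, MYOCD, C1QA and SPI1. Log2 fold changes are given with their SE. Neuron markers had a median of 0.030 over 3 tested, with SLC18A2 at -1.01 ± 0.42 and UCHL1 at 0.24 ± 0.35. Schwann cell markers, at 7.10 to 13.4 CPM in HF and 6.24 to 13.5 CPM in LF, had a median of -0.40 over 4, with CDH19 at -0.81 ± 0.38 and NGFR at 0.77 ± 0.43. Endothelial markers, at 3524 to 7309 CPM in HF and 6082 to 8503 CPM in LF, had a median of -0.36 over 10, 3 positive and 7 negative. PECAM1 was at -0.76 ± 0.20 and VWF at -0.55 ± 0.25, while CDH5 was at 0.073 ± 0.24 and TIE1 at 0.018 ± 0.28. Smooth muscle and pericyte markers had a median of -0.16 over 6, with MYOCD at 0.94 ± 0.29 and ACTA2 at -0.91 ± 0.29. Macrophage markers, at 961 to 1352 CPM in HF and 840 to 1515 CPM in LF, had a median of 0.58 over 8, 6 positive and 2 negative. C1QA was at 0.90 ± 0.23 and SPI1 at 1.10 ± 0.29, while MRC1 was at -0.22 ± 0.31 and LAPTM5 at -0.19 ± 0.14. Mesothelial markers had a median of 0.68 over 5, with WT1 at -0.88 ± 0.33 and TBX18 at 0.71 ± 0.32. Adipocyte markers had a median of -0.0078 over 12, 5 positive and 7 negative. The triglyceride-making enzyme DGAT2 was at 2.29 ± 0.60 and CIDEC at 0.86 ± 0.30, while CD36 was at -0.46 ± 0.17 and GPD1 at -0.52 ± 0.19. Skeletal muscle markers had a median of -1.33 over 3, with LDB3 at -1.33 ± 0.86 and ACTN2 at -1.56 ± 1.04. They summed to 1.41 to 13.5 CPM in HF, against 44.5 CPM in LF-3, the library with the most SLC6A2, and 1.22 to 3.62 CPM in the other LF libraries. Without LF-3 the log2 fold change of SLC6A2 was -2.02.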

How the data were processed

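RNA of abdominal fat was isolated with Trizol for Illumina sequencing, per the labels' protocols. The authors deposited estimated counts and FPKM for each transcript and library, per the file headers. The submitters' processing notes name Bowtie2 2.2.8 and TopHat2 2.1.1 and give them no role. Quantifier, genome build and strandedness: not given in the sources used here. Reads of antisense partners therefore cannot be told apart.

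Estimated counts were summed per symbol, ignoring case, and rounded. Rows that carry no symbol, 0.839% to 0.966% of the counts, entered only the test of transcripts. HF and LF were compared with edgeR 4.0.16 in R 4.3.3 (quasi-likelihood test, TMM scaling, filterByExpr), with Benjamini-Hochberg adjustment over 10511 genes and a threshold of 0.05, and again over transcripts. The procedure was tested on simulated data. Those counts had the same dispersion for every gene, so they check its working and not its error rate in these libraries. The SE is the log2 fold change divided by the root of its F statistic. Alternatives were DESeq2 1.42.0, limma 3.58.1 on log2(FPKM + 1) and log2(FPKM + 0.1) for genes averaging 0.5 FPKM or more, other scalings, no filter, a replicate block, RefSeq rows alone, a W covariate and leaving out each library.

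The members and lists were chosen with earlier results of these data known. From each of the 11 pathway lists and 8 marker lists, up to 4 genes past the threshold were to be named, or else the pair with the smallest p. The 5 genes most like SLC6A2 and ADRA2A, GCGR, PDE3B, TH, DBH and DDC were named whatever their values. Other genes were named after their values were seen. The reference gene table, of the assembly IASCAAS_PekinDuck_T2T, served for gene order and to look up the members. In it SLC6A2, ADRB1, GNAS, ADCY5, PRKACB and PRKAR2B were not on chromosome Z. MAOA and PRKACA were not found there by symbol. The lncRNA table was not used. Some genes of the lists are not reported here by name.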

Additional observations from a re-analysis of the deposited data

How the results depend on the processing

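The count of genes past the threshold was 68, and 606 by DESeq2, 9 with the replicate block, 23 over RefSeq rows alone, 128 with the W covariate and 2 to 92 when each library was left out. Transcripts past it were 4, and 624 by DESeq2, 16 and 17 by limma on log2(FPKM + 1) and log2(FPKM + 0.1), 0 without a low-count filter, 0 with the replicate block, 28 with the W covariate and 0 to 35 leaving out a library. Pathway genes past it were 0, and 10 by DESeq2, 1 in each limma fit (ADRA1B), 1 with the W covariate (PDE1C) and 0 to 1 leaving out a library. Log2 fold changes moved beyond the spread between replicates for SLC6A2 on log2(FPKM + 1), to -1.40, where the pseudocount of 1 lies near its level in HF, for PRKACB over RefSeq rows (0.15), and, where a W covariate leaves LF-4 as the comparison, for GNAS (-0.91), ADCY5 (0.91), PRKACB (-0.26) and PRKAR2B (-0.19). Sums over RefSeq rows leave out TCONS_00039019, which held 68.5% of PRKACB counts in HF and 74.1% in LF. The cause of the other shifts was not tested. SLC6A2 kept its sign under all 17 alternatives run, GNAS and ADCY5 too. With the replicate block SLC6A2 was at -2.18 and not past the threshold (edgeR adjusted p = 0.0951). Same-numbered libraries had correlations of their deviations from the group means of -0.22 to 0.028. Of 4 pairs 0 correlated best with their own number. Such correlations over all genes cannot exclude a pairing that touches few genes. The block changed no other call among the 7 genes. Counts near or under 5 per library, as for TH and DBH, limit what depth can show.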

Other observations

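Of the genes next to SLC6A2 in the order of the reference assembly, those with rows in the table were looked at after the values of SLC6A2 were seen. LPCAT2, the nearest on one side and an enzyme of phospholipid remodelling, was at 34.3 to 42.7 CPM in HF and 34.0 to 41.1 CPM in LF, with a log2 fold change of 0.026 ± 0.12 (SE). MMP2, a matrix protease and the third gene on that side, was at 586 ± 87.5 CPM in HF and 645 ± 119 CPM in LF (-0.14 ± 0.17, SE; SD, n = 4 each). SLC12A4, a potassium and chloride cotransporter and the second gene on the other side, was at 284 ± 46.5 CPM in HF and 239 ± 39.5 CPM in LF (0.25 ± 0.16, SE). The groups overlapped for all of them, and none passed edgeR's test (adjusted p from 0.519 to 0.945).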
